A study of Arabidopsis thaliana and Arabidopsis thaliana x Arabidopsis arenosa and Arabidopsis arenosa with 18 samples.

Results

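Of the 31189 transposable element (TE) loci counted in young Arabidopsis seeds, 1039 (3.33%) had at least 3 reads in both libraries of at least 1 of the 4 seed groups, and these loci, chosen by these read counts, are described here as the members. The series asked how gene expression differs between seeds of an incompatible and a compatible cross of Arabidopsis thaliana with Arabidopsis arenosa, and TE reads were counted in 8 poly-A selected, random-primed libraries of whole seeds taken 3 days after pollination. Col hybrid seeds came from ColA9 mothers, of the Col-0 accession, pollinated by A. arenosa, the cross that the series' design calls incompatible. C24 hybrid seeds came from C24A9 mothers, of the C24 accession, pollinated by A. arenosa, the cross called compatible. Col control seeds were ColA9 X Col-0, and C24 control seeds were C24A9 X C24. All A. thaliana mothers, those of the controls included, were diploid and hemizygous for a male-sterility construct. The A. arenosa father was the diploid var. Strecno, and a single plant served as pollen donor for every hybrid cross. Each group had 2 libraries, and the labels do not say whether these came from separate plants, so every p-value reflects the spread of the libraries alone, which may be technical.

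TEs are DNA segments that can move or copy themselves within a genome, and most copies in plants are kept from being transcribed by DNA methylation, by repressive histone marks and by small RNAs. In A. thaliana they are concentrated around the centromeres, with scattered copies along the chromosome arms. The endosperm, the nourishing tissue of the seed, is known to lose DNA methylation at many TEs of the maternal genome, and release of TEs has been discussed for crosses between species. A TE identifier such as AT4TE83085 gives the chromosome in the digit after AT, and the number after TE runs in order along that chromosome. The files pair no identifier with a position, a family, a length or a neighbouring gene, so each member is described by its identifier and its reads. Levels are therefore compared between libraries for 1 locus at a time, as CPM, the reads of a locus scaled to 1000000 gene reads of its library, and a level cannot be set per length.

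The libraries differed more in the summed level of the TE loci outside the member set, 123.6 to 9301 CPM, than in that of the members, 272.8 to 2999 CPM. The smaller range of the members follows in part from the rule, which keeps out loci read in only 1 library of a group. The 8 libraries held 8931520 to 16149496 reads on genes. TE reads made up 0.0668% and 0.167% of all counted reads in the Col hybrid libraries, 0.25% and 0.044% in the C24 hybrid libraries, 1.22% and 0.0561% in the Col control libraries, and 0.258% and 0.0577% in the C24 control libraries. Replicate 1 of both controls stood apart: 16707 loci had a read in Col control 1, against 2214 in Col control 2, and 9263 had one in C24 control 1, against 2355 in C24 control 2. The members took 50.5% and 34% of TE reads in Col hybrid, 27.5% and 62% in C24 hybrid, 24.4% and 78% in Col control, and 33.6% and 75.6% in C24 control. Gene loci annotated as pseudogenes also took 1.09% of gene reads in Col control 1 and 0.457% in C24 control 1, against 0.198% to 0.3% in the other 6 libraries. The source of the extra reads was not tested, and the counts of member calls below are given with and without replicate 1 of both controls. C24 hybrid 1 stayed in the fits without those control libraries. In all 4 comparisons of groups the exact two-sided permutation test of the TE share gave p between 0.667 and 1.0, where the smallest p that 2 against 2 libraries allow is 0.333. The seed labels fitted the marker genes: the summed level of the seed coat genes BAN, TT4 and STK was 11500 to 15690 CPM. CPM of genes were scaled with TMM factors. The summed level of the fruit genes FUL and IND was at most 4.94 CPM and that of the pollen genes ANX1, ANX2 and RALF4 at most 7.907 CPM. TT4, at 9200 to 12700 CPM, made up most of the seed coat sum, and its hybrid and control libraries overlapped. BAN and STK were lower in every hybrid library than in any control library. BAN had 654 to 1030 CPM in the hybrids against 1970 to 3760 CPM in the controls. STK had 200 to 414 CPM against 427 to 734 CPM.

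**Figure D1:**
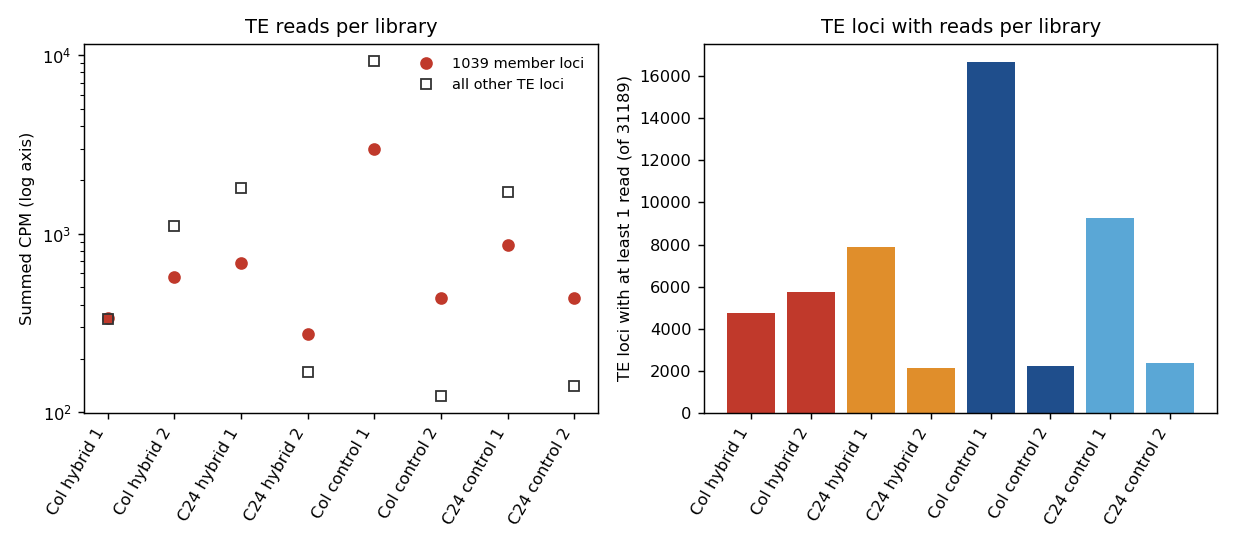
Summed TE CPM (left, log axis) for the 1039 members and for all other TE loci, and the number of TE loci with at least 1 read (right), in each of the 8 seed libraries. Non-member loci summed to 123.6 CPM in Col control 2 at the lowest and 9301 CPM in Col control 1 at the highest, while the members summed to 272.8 CPM in C24 hybrid 2 at the lowest and 2999 CPM in Col control 1 at the highest.

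Of the members, 668 (64.3%) qualified through 1 group and 371 (35.7%) through more than 1. Through Col hybrid 519 members qualified, through C24 hybrid 245, through Col control 424 and through C24 control 414, and 60 qualified in all 4 groups. Col hybrid was the only group of 296 members, C24 hybrid of 71, Col control of 145 and C24 control of 156, while 86 qualified in both controls only and 31 in both hybrids only. These numbers follow from the rule and are a description with no test. Membership through a single hybrid did not mean that the locus was silent elsewhere. Of the 296 members that qualified only through Col hybrid, 276 had at least 10 times as many reads in Col control 1 as in Col control 2, with a median of 48 reads in Col control 1 and of 0 in Col control 2. AT1TE28370, chosen after its values were seen, shows the pattern: 9 and 13 reads in Col hybrid, 4 and 1 in C24 hybrid, 138 and 0 in Col control, and 1 and 2 in C24 control. Among the 86 members of both controls only, 3 had such a ratio between the Col control libraries. Within the groups, the median ratio of replicate 1 to replicate 2 over the members that qualified there was 0.553 in Col hybrid, 1.54 in C24 hybrid, 2.21 in Col control and 1.38 in C24 control.

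**Figure D2:**
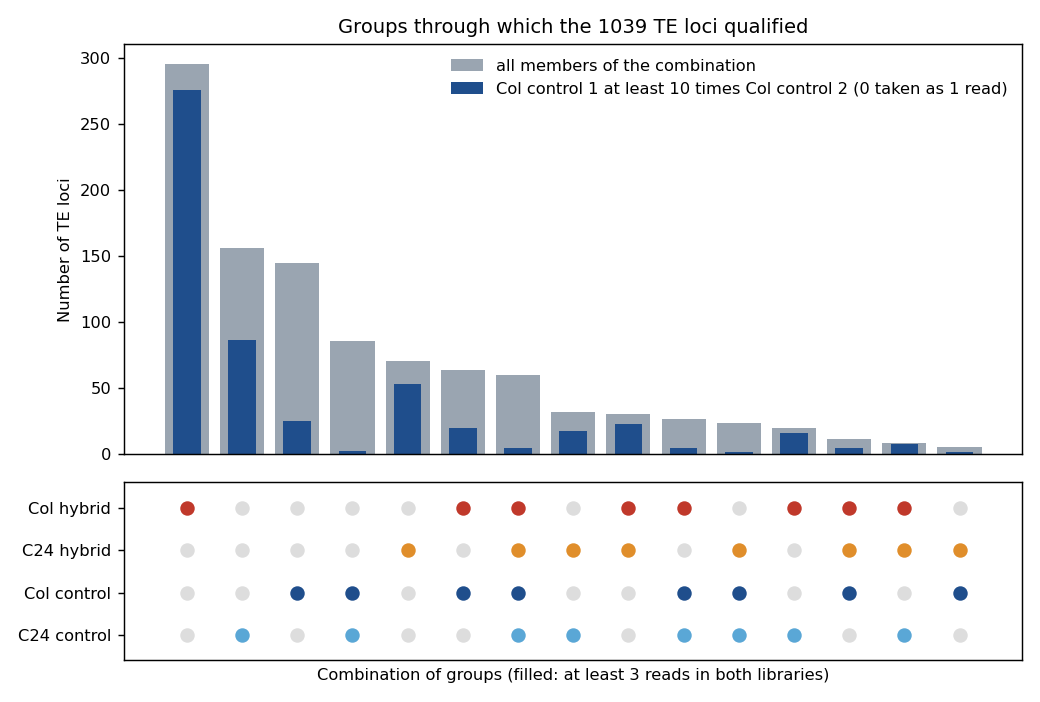
Number of members for each combination of groups through which they qualified (grey bars; filled dots below mark the groups with at least 3 reads in both libraries), and how many of them had at least 10 times as many reads in Col control 1 as in Col control 2 (blue bars). The Col hybrid only combination is the largest, with 296 members, of which 276 have that excess in Col control 1.

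Most members lay close to the limit of detection. The mean of the 4 group means had a median of 0.524 CPM over the members, with 0.0486 CPM the lowest and 19.1 CPM the highest. It was above 1 CPM at 235 members and above 10 CPM at 3. A count of 3 reads, the least that qualifies, corresponds to 0.186 to 0.336 CPM, depending on the library. In 420 members the best group had exactly 3 reads in its lower library, as at AT1TE02075 (3 and 4 reads in Col hybrid) and AT1TE04985 (8 and 3 reads in Col control). Just outside, 1063 loci had 2 reads there, as at AT1TE00670 (3 and 2 reads in Col hybrid) and AT1TE01985 (39 and 2 reads in Col control). In all, 17438 loci, these 1063 included, had at least 1 read without qualifying, and 12712 had none. The depth does not allow a locus with no read to be called silent.

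The members were spread over all 5 chromosomes and were denser away from the middle of the identifier order. They made up 3.06% of TE loci on chromosome 4, the lowest share, and 3.5% on chromosome 2, the highest. With the loci of each chromosome ranked by identifier and divided into 10 equal parts, 506 of 12476 loci in the outer 4 parts were members (4.06%), against 309 of 12474 in the middle 4 parts (2.48%). Members of the controls differed more between these zones than members of Col hybrid. Through Col hybrid 1.9% of the outer and 1.49% of the middle loci qualified, through C24 hybrid 1.09% and 0.465%, through Col control 1.85% and 0.77%, and through C24 control 1.68% and 0.866%. In Col control 1, the library with the most TE reads, 58% of the outer and 48.1% of the middle loci had at least 1 read, against 9.11% and 4.93% in Col control 2. Neighbouring loci are not independent, so no test is given for these shares. Of the members, 139 (13.4%) directly followed or preceded another member in the identifier order, in 67 runs, of which 16 consisted of members that qualified in the same groups.

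The 5 members that varied least over the 8 libraries, among the 60 that qualified in every group, had coefficients of variation of 15.7% to 27.1%. AT4TE83085 on chromosome 4 had the highest mean level, with 14.9 and 16.7 CPM in Col hybrid, 15.6 and 23.1 in C24 hybrid, 21.0 and 21.1 in Col control, and 15.4 and 25.1 in C24 control. Both Col hybrid libraries were below both Col control libraries, the libraries of the C24 cross overlapped, and its coefficient of variation was 20.7%. The other 4 were AT5TE25140 (15.7%), AT2TE80670 (17.1%), AT3TE36835 (24.7%) and AT1TE94640 (27.1%). Their levels were between 0.314 CPM, in C24 control 2 at AT1TE94640, and 2.41 CPM, in Col control 2 at AT2TE80670. At AT4TE83085 the log2 fold change was -0.42 ± 0.24 (SE) for Col hybrid over Col control, with an adjusted p of 0.729, and -0.06 ± 0.24 for C24 hybrid over C24 control, with an adjusted p of 1.0 (edgeR's quasi-likelihood test, Benjamini-Hochberg adjustment). In the C24 cross that small difference changed sign without C24 hybrid replicate 1 (0.19) and without C24 control replicate 2 (0.33).

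At several of the most highly read members, hybrid seeds had far fewer reads than the controls of the same mother. Among the 10 members with the highest mean level the largest difference was at AT5TE79650 on chromosome 5, with 0.0619 and 0.224 CPM in Col hybrid and 0 and 0.26 CPM in C24 hybrid, against 41.8 and 22.6 CPM in Col control and 6.84 and 29.6 CPM in C24 control. It was thus read at some of the highest levels of any member in both controls and was close to absent from both hybrids. It qualified through the controls and no hybrid, so that the rule itself bears on this direction. From the summed reads, 3 in Col hybrid against 994 in Col control, it was 269-fold lower in Col hybrid (95% counting interval 91.9 to 1310). With 3 reads in C24 hybrid against 576 in C24 control, it was 148-fold lower in C24 hybrid (50.4 to 719). These intervals cover counting error only. With 1 library left out, its fitted log2 fold change was between -8.84 (without Col hybrid 2) and -7.11 (without Col hybrid 1) in the Col cross, and between -11.02 (without C24 hybrid 2) and -5.63 (without C24 control 2) in the C24 cross. AT2TE26350 on chromosome 2 had 1.3 and 1.12 CPM in Col hybrid and 1.67 and 0.433 CPM in C24 hybrid, against 21.0 and 12.8 CPM in Col control and 22.6 and 17.3 CPM in C24 control. No hybrid library overlapped a control library at either locus.

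The quasi-likelihood test over the 1440 TE loci with enough reads, of which 594 were members, called 3 members in each cross, all lower in the hybrid. They were all the TE loci called, 0.208% of those tested. In Col hybrid against Col control these were AT5TE79650 (log2 fold change -7.79 ± 1.23, adjusted p = 0.0112), AT2TE26350 (-3.79 ± 0.59, adjusted p = 0.0112) and AT1TE67190 (-3.79 ± 0.31, adjusted p = 2.01e-05). In C24 hybrid against C24 control they were AT2TE26350 (-4.23 ± 0.6, adjusted p = 0.00586), AT1TE79760 (-3.62 ± 0.5, adjusted p = 0.00586) and AT5TE79650 (-7.05 ± 1.19, adjusted p = 0.0221). AT1TE79760 had 5.14 and 3.92 CPM in Col hybrid and 0.955 and 1.56 CPM in C24 hybrid, against 10.9 and 14.8 CPM in Col control and 17.4 and 13.8 CPM in C24 control, so that it was low in both hybrids and lowest in C24 hybrid. DESeq2 called 0 members in either cross, where 16 in the Col cross and 8 in the C24 cross had an unadjusted p under 0.05. Without replicate 1 of both controls the quasi-likelihood test called 6 members in the Col cross, all lower, where 0.746% of TE loci tested were called, and 6 in the C24 cross, 1 higher and 5 lower, where 0.995% were called. Without Col control 1 alone it called 9 in the Col cross, all lower, and 7 in the C24 cross, 1 higher and 6 lower, where 0.625% of TE loci tested were called in each. The call of AT1TE79760 was lost without any 1 of the 4 libraries with a C24 mother.

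**Figure D3:**
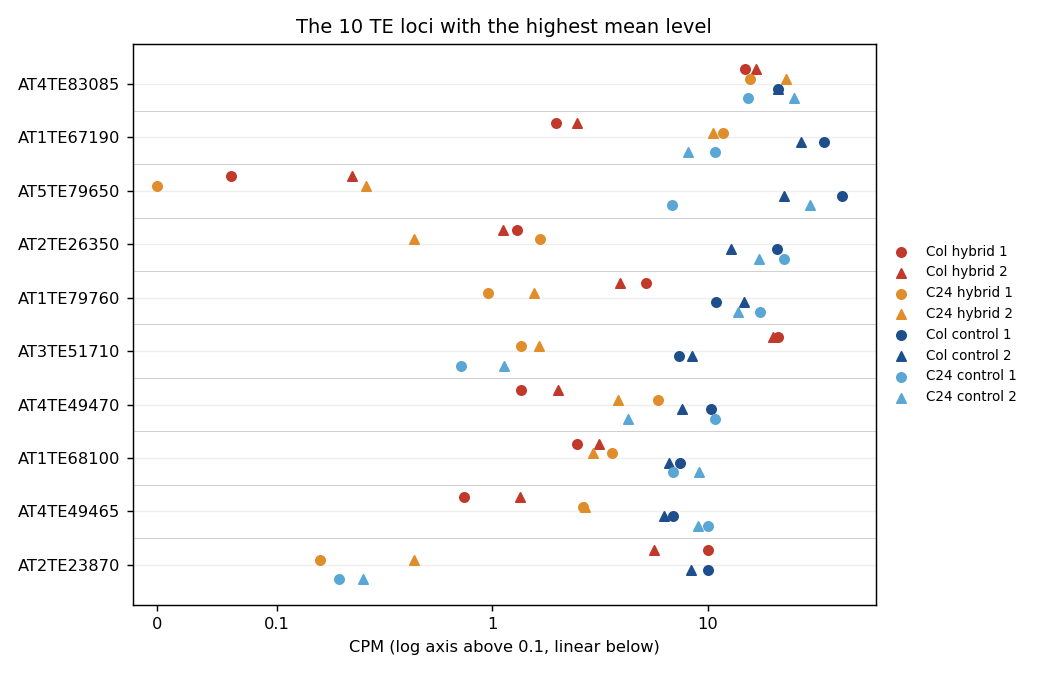
CPM (log axis above 0.1, linear below) of the 10 members with the highest mean level, with 1 symbol per library (circles replicate 1, triangles replicate 2; each locus from top to bottom Col hybrid, C24 hybrid, Col control, C24 control). AT5TE79650 and AT2TE26350 are lower in all 4 hybrid libraries than in any control library, AT3TE51710 and AT2TE23870 are higher in all 4 libraries with a Col mother, and AT4TE83085 has a coefficient of variation of 20.7%.

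An alternative fit that took genes and TE loci together, with a spread estimated over both, called more members. This joint fit of 21992 features called 23 members in Col hybrid against Col control, 4 higher and 19 lower, where 13.5% of all features were called. In C24 hybrid against C24 control it called 21 members, 5 higher and 16 lower, where 27.9% of all features were called. The members' shares, 0.673% higher and 3.2% lower of 594 in the Col cross and 0.842% and 2.69% in the C24 cross, were below the 5.49% and 8.00%, and the 14.0% and 14.0%, of all features. Without replicate 1 of both controls the joint fit called 18 members in the Col cross, 2 higher and 16 lower, of which 2 and 15 were also called with them, where 6.08% of all features were called, 2.80% higher and 3.28% lower. In the C24 cross it then called 23, 6 higher and 17 lower, of which 4 and 15 were also called with them, where 17.8% of all features were called, 9.51% higher and 8.30% lower. The 4 groups share 1 estimate of the spread in each fit, and the 2 crosses share no library.

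Lower in both crosses in the joint fit were 10 of the 594 members tested, where 1257 of all 21992 features (5.72%) were lower in both. The 10 were 52.6% of the 19 members lower in Col hybrid and 62.5% of the 16 lower in C24 hybrid. Among all features, the 1257 stood beside 1759 lower in Col hybrid and 3069 lower in C24 hybrid. Of the 10, 4 (AT5TE79650, AT1TE83380, AT4TE24335 and AT4TE68245) qualified through the controls and no hybrid, so that the rule itself bears on their direction, and 6 qualified through both hybrids as well. Beside AT5TE79650, AT2TE26350 and AT1TE79760 these were AT1TE68100, AT1TE83380, AT4TE24335, AT4TE49465, AT4TE68245, AT5TE29800 and AT5TE44605, which are named because of their calls. AT1TE83380 had 0 and 5 reads in Col hybrid and 3 and 1 in C24 hybrid, against 64 and 46 in Col control and 127 and 111 in C24 control. AT4TE24335 had 1 and 3 reads in Col hybrid and 0 and 1 in C24 hybrid, against 36 and 19 in Col control and 93 and 131 in C24 control, a ratio of 173-fold lower in C24 hybrid (95% counting interval 30.7 to 6850). Both were clearly read in the controls and were near the limit of detection in the hybrids. AT4TE68245 had no read in either Col hybrid library and 5 and 2 in C24 hybrid, against 106 and 72 in Col control and 48 and 26 in C24 control. Set against a floor of 3 reads in each library, it was at least 22.1-fold lower in Col hybrid. Differences at AT1TE68100 were smaller, with 2.48 and 3.14 CPM in Col hybrid and 3.58 and 2.95 CPM in C24 hybrid, against 7.44 and 6.57 CPM in Col control and 6.9 and 9.05 CPM in C24 control. Its log2 fold changes in the joint fit were -1.33 ± 0.25 (adjusted p = 0.0142) in the Col cross and -1.28 ± 0.25 (adjusted p = 0.00733) in the C24 cross, and without replicate 1 of both controls the adjusted p in the Col cross was 0.08. The calls of AT4TE24335 and AT5TE44605 in the Col cross and of AT4TE68245 in the C24 cross were likewise lost without these libraries (adjusted p = 0.0953, 0.19 and 0.0676).

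AT4TE49465 and AT4TE49470, next to each other in the identifier order on chromosome 4, were both among the 10 most highly read members. AT4TE49465 had 0.743 and 1.34 CPM in Col hybrid and 2.63 and 2.69 CPM in C24 hybrid, against 6.92 and 6.24 CPM in Col control and 10.0 and 8.99 CPM in C24 control. AT4TE49470 had 1.36 and 2.02 CPM in Col hybrid and 5.89 and 3.81 CPM in C24 hybrid, against 10.3 and 7.55 CPM in Col control and 10.8 and 4.27 CPM in C24 control. The neighbours thus shared the lower level in Col hybrid, while in the C24 cross the libraries of AT4TE49470 overlapped between hybrid and control. In the joint fit AT4TE49465 was lower in both crosses (-2.71 ± 0.3, adjusted p = 0.00242, and -1.84 ± 0.27, adjusted p = 0.00245). AT4TE49470 was lower in Col hybrid (-2.43 ± 0.49, adjusted p = 0.0178), and its difference in the C24 cross was -0.63 ± 0.44 (adjusted p = 0.348).

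A small set of members was higher in hybrid seeds, and 3 of them were called in both crosses in the joint fit, where 4.26% of all features were higher in both. AT1TE58840 had 2.23 and 0.784 CPM in Col hybrid and 2.95 and 4.94 CPM in C24 hybrid, against 0.129 and 0.065 CPM in Col control and 0.13 and 0.189 CPM in C24 control. AT1TE94415 had 3.9 and 4.03 CPM in Col hybrid and 5.25 and 6.07 CPM in C24 hybrid, against 1.36 and 1.3 CPM in Col control and 1.24 and 0.88 CPM in C24 control. AT4TE47000 had 3.41 and 2.35 CPM in Col hybrid and 1.43 and 2.17 CPM in C24 hybrid, against 0.453 and 0.26 CPM in Col control and 0.26 and 0.314 CPM in C24 control. AT1TE58840 qualified through both hybrids and no control, so that the rule itself bears on its direction. AT1TE94415 and AT4TE47000 qualified in every group. All 3 were higher in every hybrid library than in any control library. Their log2 fold changes over the Col control were 3.85 ± 0.93 (AT1TE58840, adjusted p = 0.033), 1.57 ± 0.35 (AT1TE94415, adjusted p = 0.0252) and 2.99 ± 0.79 (AT4TE47000, adjusted p = 0.044). Over the C24 control they were 4.55 ± 0.93 (AT1TE58840, adjusted p = 0.00904), 2.41 ± 0.36 (AT1TE94415, adjusted p = 0.00259) and 2.61 ± 0.79 (AT4TE47000, adjusted p = 0.0413). Without replicate 1 of both controls the adjusted p was 0.0543 for AT1TE58840 and 0.0689 for AT1TE94415 in the Col cross, and 0.0524 for AT4TE47000 in the C24 cross. AT3TE47310 was higher in C24 hybrid, with 3.74 and 3.47 CPM there and 0.805 and 0.672 CPM in Col hybrid, against 0.517 and 0.26 CPM in Col control and 0.13 and 0.126 CPM in C24 control. It qualified through every group but C24 control. The joint fit with all libraries called it in the C24 cross (4.72 ± 0.91, adjusted p = 0.00734), and the difference between the crosses did not pass the test (adjusted p = 0.213). Without replicate 1 of both controls its log2 fold change in the C24 cross was 4.74.

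**Figure D4:**
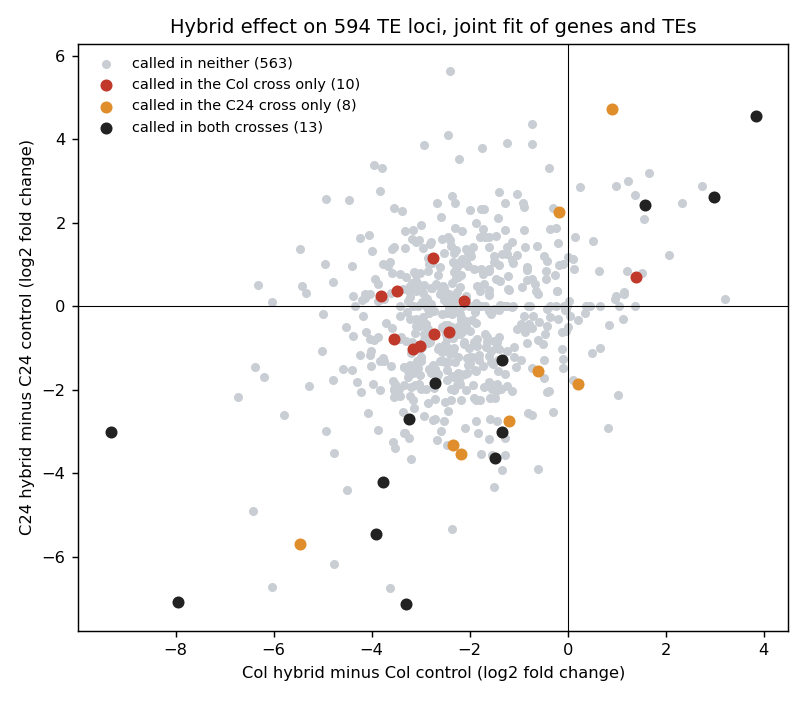
Log2 fold change of C24 hybrid over C24 control (vertical) against that of Col hybrid over Col control (horizontal) for the 594 members tested in the joint fit of genes and TE loci; fitted values of loci with no read in a group depend on the fit. Of the 13 members called in both crosses (black), 10 lie at the lower left and 3 at the upper right, and no called member was called in opposite directions.

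Over all members, the direction of the hybrid difference changed when single libraries were left out. The median log2 fold change of the 594 members tested was -2.26 in the Col cross, where that of all 1440 TE loci tested was -2.57, and -0.24 in the C24 cross, where that of all was -0.07. Without Col control 1 the medians in the Col cross were 1.8 for members and 2.67 for all TE loci tested, and without replicate 1 of both controls those in the C24 cross were 1.83 and 3.3. In the C24 cross they were -2.19 and -3.04 without C24 hybrid 1, and 1.23 and 2.44 without C24 control 1. These fits also tested other sets of loci. The sets ranged from 453 members of 804 TE loci, without replicate 1 of both controls, to 853 of 4425, without C24 hybrid 1. The parts of the left-out library and of the changed set were not separated. No direction over all members is therefore given. Libraries of hybrid and control did not overlap at 32 higher and 259 lower members in the Col cross, beside 0.352% higher and 5.12% lower among the 18477 TE loci with a read. In the C24 cross the counts were 79 higher and 243 lower, beside 2.14% and 3.29%. A member that qualified through the control and not the hybrid could not be higher in the hybrid without overlap, and 187 of 261 such members in the Col cross and 184 of 289 in the C24 cross were lower without overlap. The counts thus follow in part from the rule, and nothing is read from them. Among the members that qualified in both groups, the counts were 19 higher and 47 lower of 163 in the Col cross, and 27 higher and 35 lower of 125 in the C24 cross. At 108 of the 1039 members the hybrid was lower without overlap in both crosses, beside 135 of the 18477 TE loci with a read (0.731%). The 108 were 41.7% of the 259 members lower in the Col cross and 44.4% of the 243 lower in the C24 cross. Among the TE loci with a read, the 135 stood beside 946 lower in the Col cross and 607 in the C24 cross. The rule bears on these counts too, and nothing is read from them. Reads of A. arenosa origin were counted on an A. thaliana genome, and transcripts that differ from it and lower transcript levels cannot be told apart. In whole seeds, fewer cells of a type and less RNA per cell cannot be told apart either. The summed level of the endosperm genes AGL62, FIS2 and PHE1 was 106.2 to 187.3 CPM in Col hybrid and 89.1 to 248.8 CPM in C24 hybrid, against 52.4 to 65.74 CPM in Col control and 37.93 to 46.59 CPM in C24 control, with none of the 3 genes at 0. The 3 genes differed in direction: FIS2 had 0.978 and 0.236 CPM in Col hybrid and 2.2 and 1.9 CPM in C24 hybrid, against 15.3 and 8.84 CPM in Col control and 28.7 and 18.8 CPM in C24 control, while AGL62 and PHE1 were higher in every hybrid library than in any control library. That of the embryo genes LEC1 and PDF1 was 113.3 to 299.1 CPM in Col hybrid and 66.34 to 98.64 CPM in C24 hybrid, against 45.69 to 51.59 CPM in Col control and 22.9 to 48.1 CPM in C24 control. Here PDF1 was higher in every hybrid library than in any control library, while LEC1 was lower, with 1.1 and 1.3 CPM in Col hybrid and 2.44 and 1.54 CPM in C24 hybrid, against 3.09 and 3.39 CPM in Col control and 32.4 and 11.9 CPM in C24 control. The part of seed composition in the TE differences was not tested.

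Some members differed between seeds of Col and of C24 mothers, and part of these also differed between hybrid and control. AT3TE51710 on chromosome 3 had 21.2 and 19.9 CPM in Col hybrid against 1.35 and 1.65 CPM in C24 hybrid, and 7.31 and 8.46 CPM in Col control against 0.716 and 1.13 CPM in C24 control. It was also the only one of the 10 most highly read members that was higher in Col hybrid than in Col control without overlap (joint fit 1.39 ± 0.2, adjusted p = 0.00586). In the fit of TE loci alone it was higher in Col hybrid than in C24 hybrid (3.77 ± 0.53, adjusted p = 0.00562) and in Col control than in C24 control (3.08 ± 0.52, adjusted p = 0.0326). That fit called 2 members in each of these comparisons, 0.139% of the loci tested. The second was AT1TE67190, described further on. Without Col control 1 it called 14 members between hybrids, 6 higher and 8 lower, where 1.25% of the loci tested were called, and 11 between controls, 6 higher and 5 lower, where 0.764% were called. The hybrid call of AT3TE51710 was lost without any 1 of the 4 hybrid libraries, and its control call with TMM or RLE factors and without each library other than Col control 1 and C24 hybrid 1. AT2TE23870 had 9.97 and 5.6 CPM in Col hybrid against 0.159 and 0.433 CPM in C24 hybrid, and 9.96 and 8.33 CPM in Col control against 0.195 and 0.251 CPM in C24 control. Its log2 differences in the joint fit were 4.71 ± 0.49 (adjusted p = 0.00114) between hybrids and 5.3 ± 0.49 (adjusted p = 0.000554) between controls, while in the fit of TE loci alone the adjusted p were 0.244 and 0.104.

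The joint fit called 16 members between Col hybrid and C24 hybrid, 8 higher and 8 lower, where 8.40% of all features were called, 4.79% higher and 3.61% lower. Between Col control and C24 control it called 15, 11 higher and 4 lower, where 13.3% were called, 8.58% higher and 4.75% lower. Without replicate 1 of both controls it called 34 between hybrids, 15 higher and 19 lower, where 8.91% of features were called, 4.90% higher and 4.01% lower. Between controls it then called 14, 8 higher and 6 lower, where 5.31% were called, 3.73% higher and 1.58% lower. The same direction in both comparisons was called at 10 members, 6 higher and 4 lower with a Col mother, named here because of these calls, where 3.16% of all features were higher and 1.66% lower in both. Of these, AT1TE06650, AT2TE05490, AT2TE12510 and AT5TE31030 qualified through the Col groups only. AT2TE13685 and AT5TE57070 qualified through the C24 groups only. The rule itself thus bears on the direction of these loci. Some of the 10 were read with a single kind of mother. AT2TE12510 had 100 and 40 reads in Col hybrid and 31 and 49 in Col control, and no read in any C24 library, so that against the same floor it was at least 21.4-fold higher between hybrids and at least 13.5-fold higher between controls. AT2TE05490 had 32 and 32 reads in Col hybrid and 33 and 29 in Col control, and none in any C24 library, at least 11.2-fold higher between hybrids and at least 10.5-fold higher between controls. AT2TE13685 had the reverse pattern, with no read in Col hybrid against 49 and 59 in C24 hybrid, and 1 and 0 reads in Col control against 58 and 44 in C24 control. It was at least 17.3-fold lower in Col hybrid than in C24 hybrid, and 101-fold lower in Col control than in C24 control (95% counting interval 17.6 to 4010).

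Others differed by degree rather than by presence. AT2TE83225 had 0.186 and 0.336 CPM in Col hybrid against 4.78 and 4.07 CPM in C24 hybrid, and 1.94 and 1.43 CPM in Col control against 7.16 and 6.97 CPM in C24 control. AT5TE81425 had 0.929 and 1.12 CPM in Col hybrid against 3.74 and 2.69 CPM in C24 hybrid, and 1.94 and 1.17 CPM in Col control against 8.59 and 10.2 CPM in C24 control. Both were lower with a Col mother in every library pair, and both were read in all 8 libraries. The neighbours AT5TE31025 and AT5TE31030 on chromosome 5 were both read with a Col mother and almost never with a C24 mother. Both qualified through the Col groups only, so that the rule bears on this direction too. AT5TE31030 had 17 and 12 reads in Col hybrid against 2 and 0 in C24 hybrid, and 107 and 140 in Col control against 1 and 0 in C24 control. AT5TE31025 had 9 and 6 reads in Col hybrid and 38 and 39 in Col control, and none in any C24 library. AT5TE31030 was in addition lower in Col hybrid than in Col control (-2.74 ± 0.69, adjusted p = 0.0383).

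Over all members, 41 had reads in all 4 libraries with a Col mother and none in the 4 with a C24 mother, and 3 had the reverse, beside 98 (0.530%) and 4 (0.0216%) of the 18477 TE loci with a read. The libraries of Col hybrid and C24 hybrid did not overlap at 258 higher and 141 lower members, beside 5.60% and 2.86% of the TE loci with a read. Those of Col control and C24 control did not overlap at 208 higher and 84 lower members, beside 3.66% and 0.963%. As before, the rule fixes part of these counts. Every read was counted on TAIR10, the genome of a Col accession. A copy that C24 lacks, a C24 copy too different to match, and a C24 copy that is not transcribed cannot be told apart in these counts.

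**Figure D5:**
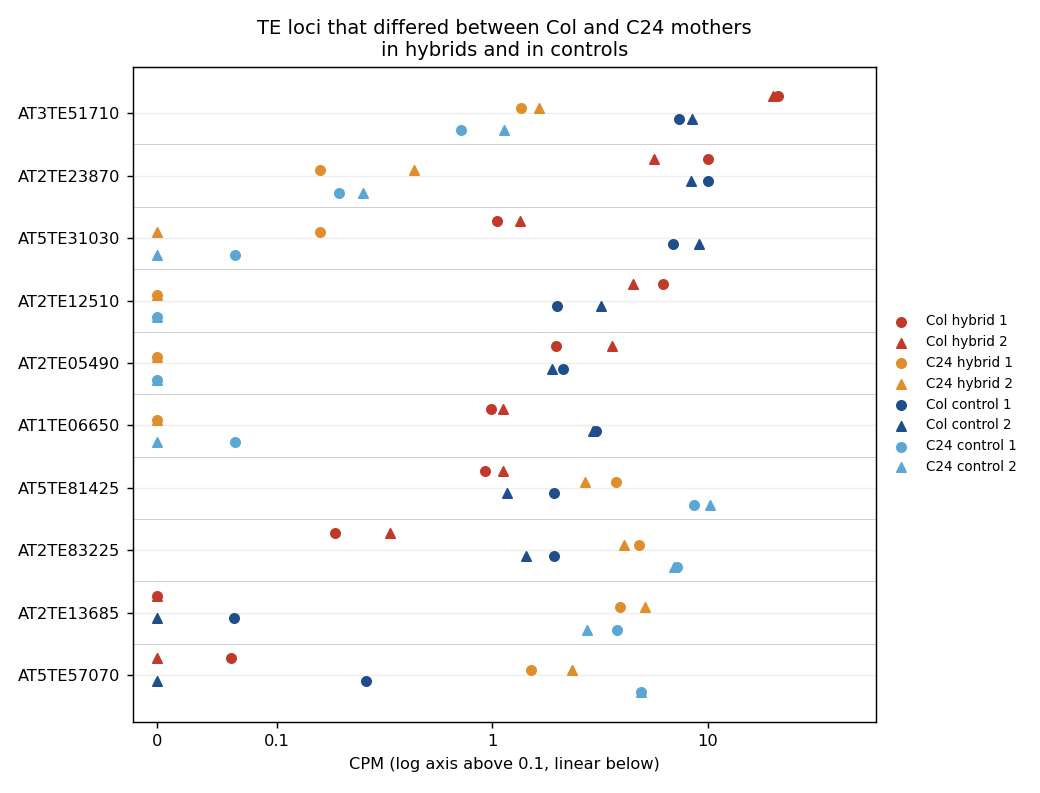
CPM (log axis above 0.1, linear below) of the 10 members called in the same direction between Col hybrid and C24 hybrid and between Col control and C24 control in the joint fit, with 1 symbol per library (each locus from top to bottom Col hybrid, C24 hybrid, Col control, C24 control). The upper 6 are higher with a Col mother, AT2TE12510 and AT2TE05490 among them with no read in any C24 library, and the lower 4 are higher with a C24 mother.

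The difference between hybrid and control itself differed between the crosses at 1 member, AT1TE67190 on chromosome 1. It had 1.98 and 2.46 CPM in Col hybrid and 11.7 and 10.6 CPM in C24 hybrid, against 34.7 and 27.0 CPM in Col control and 10.8 and 8.11 CPM in C24 control. Col control was thus the highest group and Col hybrid the lowest, while the C24 hybrid and C24 control libraries overlapped. The log2 fold change over the control was -3.79 ± 0.31 in the Col cross (adjusted p = 2.01e-05) and 0.24 ± 0.28 in the C24 cross (adjusted p = 1.0), and the difference between them was -4.03 ± 0.41 (adjusted p = 0.000254). It was the only TE locus called in this test, 0.0694% of those tested, and the joint fit, in which 0.868% of all features were called lower, also called no other member, nor did it without replicate 1 of both controls, where 0.726% were called lower. The call held without each replicate and without replicate 1 of both controls, and was lost with DESeq2 and in the fit of every locus with a read. Between the accessions it was lower in Col hybrid than in C24 hybrid (-2.32 ± 0.29, adjusted p = 0.00301) and higher in Col control than in C24 control (1.7 ± 0.28, adjusted p = 0.0326). The hybrid call was lost without Col hybrid 1, Col hybrid 2 or Col control 2, and the control call with TMM or RLE factors and without each library other than Col control 1 and C24 hybrid 1. AT1TE81935, chosen after its values were seen, was likewise lowest in Col hybrid. It had 2 and 5 reads in Col hybrid and 55 and 40 in C24 hybrid, against 50 and 58 in Col control and 45 and 50 in C24 control. Unlike at AT1TE67190, Col control was not the highest group. Both C24 hybrid libraries, at 4.38 and 3.47 CPM, were above both C24 control libraries, at 2.93 and 3.14 CPM. Its difference between crosses was -3.85 ± 0.8 in the joint fit (adjusted p = 0.0829) and did not pass the test.

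Genes of the machinery that silences TEs, and some that act against it, were listed for DNA methylation, small RNA production and histone modification, 38 in all. The DNA demethylase genes DME, ROS1, DML2 and DML3 and the histone demethylase gene IBM1 were among them. In C24 hybrid 17 of the 38 were higher and 2 lower than in C24 control. There 31.8% of the 20552 genes tested were called, 16.8% higher and 15.0% lower. In Col hybrid 7 were higher and 1 lower than in Col control, where 16.8% of genes were called, 10.4% higher and 6.38% lower. The median log2 fold change of the list was 0.48 in the C24 cross and 0.27 in the Col cross, and that of all genes 0.00 and -0.01. MET1, which maintains CG methylation, had 70.2 and 67.6 CPM in Col hybrid and 106 and 88.9 CPM in C24 hybrid, against 36.4 and 42.3 CPM in Col control and 35.1 and 34.6 CPM in C24 control. It was higher in both crosses (0.81 ± 0.14, adjusted p = 0.00846, and 1.48 ± 0.14, adjusted p = 0.00039). Also higher in both were CMT3, a methyltransferase of CHG sites, NRPD2, a subunit shared by RNA polymerases IV and V, RDR2 and RDR6, which copy RNA into double strands, SGS3, a partner of RDR6, and HDA6, a histone deacetylase. Higher in C24 hybrid, with no call in Col hybrid, were DDM1, a chromatin remodeller, CMT2, SUVH5, SUVH6, NRPE1, DCL3, AGO6, AGO1, VIM1 and IBM1. IBM1 is a histone demethylase that keeps heterochromatin marks off genes. The call was lower for DCL2 in Col hybrid (-0.58 ± 0.17, adjusted p = 0.049) and for DMS3 and SUVH9, both of the RNA-directed pathway, in C24 hybrid (-0.5 ± 0.14, adjusted p = 0.0243, and -0.51 ± 0.12, adjusted p = 0.0145). Without replicate 1 of both controls the median log2 fold change of the list was 0.22 in the Col cross and 0.41 in the C24 cross. That of all genes was then 0 and 0.02. Leaving out 1 library of the compared groups gave list medians of 0.21 to 0.39 in the Col cross and 0.39 to 0.61 in the C24 cross. Those of all genes were then -0.14 to 0.01 and -0.11 to 0.04. In each of these fits fewer of the 38, and fewer of all genes, were called than with all libraries. Such fits leave 1 library in a group, so their calls are not counted here. Scaling by total gene reads moved the median of all genes in the Col cross to -0.15 and left 4 called there. Whether the crosses differ at these genes was not tested, nor was any relation between these genes and the TE loci.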

How the data were processed

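The authors deposited read counts per gene and per TE locus, aligned with BWA to TAIR10 per the submitters' processing notes. How reads matching several places were treated is not given in the sources used here, so near-identical TE copies can share reads. The library protocol names no strand marking. Each control column is the sum of 2 sample records, one titled "single". No value column was left unmapped, and coordinates and sequences of TE loci were not used here.

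TE counts were scaled by total gene reads, filtered with filterByExpr and tested with edgeR 4.0.16 (glmQLFit, glmQLFTest; R 4.3.3) over the 8 seed libraries in 4 groups, without covariates, with Benjamini-Hochberg adjustment over all TE loci tested and a threshold of 0.05. Gene tests used TMM factors. Alternatives were DESeq2 1.42.0, other scalings and filters, a joint fit of genes and TE loci, a replicate block and left-out libraries. The procedure was tested on simulated counts with large changes at highly read loci, the same spread at every locus and no excess in any library. That test therefore does not cover the excess in replicate 1 of the controls or in C24 hybrid 1. Counting intervals are exact 95% intervals, and the floor is 3 reads per library. SE are from the F statistic.

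Members were loci with at least 3 reads in both libraries of a group. Named were the 10 highest by mean level, called loci without overlap between groups, the 5 least variable of those qualifying everywhere, called silencing genes and 2 examples on each side of the threshold. Other names are said to follow from their values. Members and lists were chosen with earlier results of these data known.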

Additional observations from a re-analysis of the deposited data

Results flagged for a closer look

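AT1TE67190 on chromosome 1 is the result whose hybrid effect differed between the crosses by the test of the difference itself. The log2 fold change over the control was -3.79 in the Col cross and 0.24 in the C24 cross, a difference of -4.03 ± 0.41 (edgeR's quasi-likelihood test, adjusted p = 0.000254). Over 19 alternatives the difference was between -4.25 and -3.83, its call held in 17 and was lost with DESeq2 and in the fit of every locus with a read, and the adjusted p was between 1.92e-21 and 1. The cause of the difference was not tested.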

How the results depend on the processing

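The number of members called, 3 for Col hybrid over Col control, 3 for C24 hybrid over C24 control, 2 for Col hybrid over C24 hybrid, 2 for Col control over C24 control and 1 for the difference between crosses, is given below in that order. The joint fit of genes and TE loci called 23, 21, 16, 15 and 1. Without replicate 1 of both controls the TE fit called 6, 6, 15, 10 and 1, and the joint fit, chosen after seeing the data, 18, 23, 34, 14 and 1. With every locus that had a read in the fit the counts were 1, 1, 0, 0 and 0, with members alone 1, 0, 2, 0 and 1, and with DESeq2 0, 0, 0, 0 and 0, where 16, 8, 19, 37 and 2 members had an unadjusted p under 0.05. With the compared groups alone they were 1, 0, 7 and 0. TMM or RLE factors gave 0 for Col control over C24 control. Leaving out 1 library gave 3 to 9, 2 to 7, 0 to 14, 0 to 11 and 1 to 1, the highest value in the first 4 being that without Col control replicate 1. Such fits also admitted loci read in 1 library, and the lone library of a group was assumed to vary like the others. With the replicate number as a block the counts were 3, 3, 2, 3 and 1. The replicate numbers were not taken as pairing, since each group has 2 and the deviations of Col hybrid ran against the other groups (r from -0.46 to -0.27 over 1039 members). The deviations of C24 hybrid, Col control and C24 control ran together (r from 0.49 to 0.66). Crossing the Col hybrid numbers, chosen after seeing the data, gave 7, 5, 7, 7 and 1.

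Of 498 recalculated values of single members 411 kept direction and side of the threshold, 63 lost the call, 17 gained one and 7 changed sign, none of these called. Without 1 library, log2 fold changes in the C24 cross ranged from -1.15 to 0.18 at AT4TE49470 (0.18 without replicate 1 of both controls, 0.19 in the joint fit without them), from -0.38 to 0.33 at AT4TE83085 and from -0.47 to 0.93 at AT2TE23870, which ranged from -0.71 to 0.12 in the Col cross. The silencing genes called were 8 in the Col cross, 4 with total gene reads and 9 with the replicate block, and 19 in the C24 cross. Of the 20552 genes tested, 3454, 3250 and 3661 were called in these fits of the Col cross, and 6536 in the C24 cross. Without 1 library, or without replicate 1 of both controls, fewer silencing genes and fewer of all genes were called in each cross. Minimums of 1, 2, 5 or 10 reads gave 5310, 2102, 433 or 184 members in place of 1039, 0.25 CPM gave 628, and replicate 2 of the controls alone 1125. Members alone took 0.0568% of reads in Col hybrid 2, 0.0688% in C24 hybrid 1, 0.296% in Col control 1 and 0.0867% in C24 control 1. Depth limits most members, which have few reads per library.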
